A study of Mus musculus with 2 samples.

Results

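The 10 genes described here make, break down, carry or answer to retinoic acid, and were taken by name from the 31053 features of the series; each of the 10 is among those features. Retinoic acid is a small signalling molecule that cells make from vitamin A: retinol is first oxidised to retinaldehyde, and retinaldehyde is then oxidised to the acid. *Aldh1a1*, *Aldh1a2* and *Aldh1a3* encode the retinaldehyde dehydrogenases of the last step, and *Cyp1b1* encodes a cytochrome P450 that can carry out the oxidation by another route. *Dhrs3* encodes a reductase that returns retinaldehyde to retinol. *Cyp26a1* and *Cyp26c1* encode the P450 enzymes that clear the acid, *Crabp1* and *Crabp2* encode proteins that bind it inside the cell, and *Rarb* encodes a nuclear receptor that it switches on. In the embryonic eye the pathway is known for opposite zones of synthesis in the dorsal and the ventral retina and for its action on the periocular mesenchyme.

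Eye cups of mouse embryos at e13.5 were measured as single cells in 2 libraries, 1 per genotype. The control library came from *Myrf* fl/fl embryos, which carry *Myrf* alleles flanked by loxP sites and no cre. The mutant library came from *Rx>cre Myrf* fl/fl embryos, in which an *Rx*-driven cre, active in the early eye field that gives rise to the retina and the retinal pigment epithelium (RPE), acts on the same alleles. Each library was a pool of 3 samples taken after the cornea, lens and optic nerve had been removed, so that no spread between animals could be measured, no test was run and the intervals given below (95%) cover counting error only.

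The libraries held 6039 control and 6754 mutant barcodes with medians of 10083 and 10638 unique molecular identifiers (UMIs, 1 per captured transcript), and 5451 and 6309 cells were kept. They shared 72 barcodes. The cells formed 29 clusters, of which 26 were given the names of 16 cell classes from marker genes, and 3 clusters of shallow cells (749 control and 660 mutant cells) stayed unnamed. No member was used to form the clusters. Among the retinal progenitor-like clusters, marker support was weakest for clusters 3 and 5. Cluster 3 (410 control and 358 mutant cells) had 4 of 12 markers over 2-fold above the other cells. Cluster 5 (327 and 353 cells) had 3 of 12, the lowest share that gave a name. All values of that class include these shallow clusters. *Myrf*, the deleted gene, stood at 74.7 CPM (UMIs of a gene per 1000000 UMIs of the class) in control RPE-like cells (155 UMIs in 253 cells) and at 20.1 CPM in mutant RPE-like cells (30 UMIs in 154 cells). The RPE-like class carried pigment cell markers, while *Rpe65* and *Rgr*, markers of mature RPE, were at 0 in both libraries. Levels are compared between classes within a gene, since UMIs of different genes need not be captured equally well.

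On mouse build GRCm38 (GENCODE vM21) the enzymes of synthesis lie apart, *Aldh1a1* at chr19:20492715-20643465, *Aldh1a2* at chr9:71215789-71296243, *Aldh1a3* at chr7:66390890-66427517 and *Cyp1b1* at chr17:79701537-79715061. The clearing enzymes are neighbours, *Cyp26a1* at chr19:37697798-37701536 and *Cyp26c1* at chr19:37685581-37693398. The others are *Crabp1* at chr9:54764748-54773110, *Crabp2* at chr3:87948666-87953376, *Dhrs3* at chr4:144892827-144928209 and *Rarb* at chr14:16430839-16819156. The counts are of whole genes, taken from the 3′ ends of their transcripts.

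The upstream DNA of 2 members is shown first, because *Rarb* and *Cyp26a1* are textbook targets of the receptors whose ligand the other members make and clear. These receptors bind a short motif that occurs in pairs. The search took as that motif AGGTCA, its variant AGTTCA, also GGGTCA, and lastly GGTTCA, any of them followed by any of them in the same direction after 5 bases, on both strands, from 250 bases before to 50 after the start of transcription. RefSeq promoters (GRCm38.p6) were at hand for 8 of the 10 members. Such a repeat was found in *Cyp26a1* and *Rarb*, and in 32 of 32851 promoters of all genes (0.0974%). The lines that follow give each repeat with its flanks, the motifs in capitals; the *Cyp26a1* repeat reads on the opposite strand, so its motifs appear as their reverse complement.
Cyp26a1, chr19:37697771-37697797, plus strand: aaagaTGAACTttgggTGAACTaattt
Rarb, chr14:16575508-16575534, minus strand: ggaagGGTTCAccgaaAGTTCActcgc

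The *Cyp26a1* repeat began 32 bases before the RefSeq start and lay outside every GENCODE transcript. The *Rarb* repeat began 53 bases before its RefSeq start and fell in the 5′ untranslated part of 2 longer GENCODE transcripts, out of 4 transcripts that span it. Repeats with 1 or 2 bases between the motifs were found in none of the 8 members' promoters, while a single motif occurs in 43.7% of all promoters. A match of letters is a description, and no binding was measured here.

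**Figure D1:**
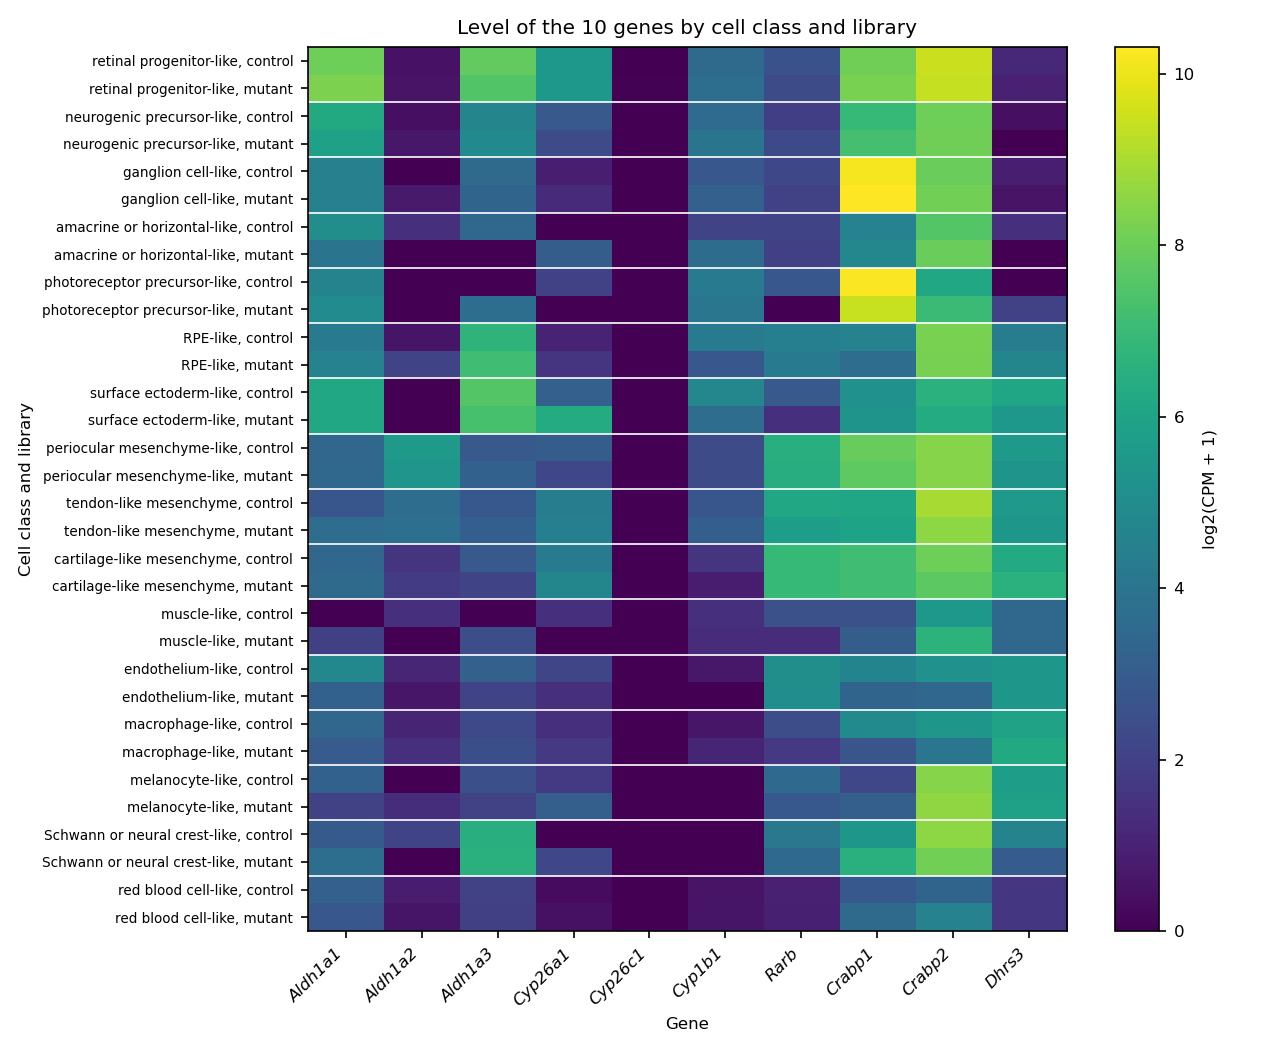
Colour gives log2(CPM + 1) of each of the 10 genes (columns) in each of the 16 named cell classes, with the control and the mutant library in adjacent rows. *Aldh1a1* and *Aldh1a3* are brightest in retinal progenitor-like cells (261 and 226 CPM in control), *Aldh1a2* in periocular mesenchyme-like cells (47.1 CPM), *Rarb* in the mesenchymal classes, and the column of *Cyp26c1* is empty.

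*Aldh1a1* was highest in retinal progenitor-like cells, the dividing cells of the young retina. It stood there at 261 CPM in control (254 to 268, 5029 UMIs in 1607 cells) and at 307 CPM in mutant (299 to 315, 5830 UMIs in 1669 cells), which was 86.0% and 87.1% of all its UMIs in kept cells. The next classes were neurogenic precursor-like cells (75.4 and 58.1 CPM) and surface ectoderm-like cells (70.6 and 69.9 CPM), whose intervals overlapped in both libraries. Amacrine or horizontal-like cells came after them in control, at 32.9 CPM against 14.4 CPM in mutant. With each cell thinned to 3000 UMIs, 25.2% of control and 32.0% of mutant progenitor-like cells held an *Aldh1a1* UMI. The share was 2.2% and 2.7% in red blood cell-like cells, which serve here as a low reference for free RNA. They were deep, with medians of 22426.5 and 22657 UMIs against 11274 and 10663 in progenitor-like cells, and were led by haemoglobin genes. Free RNA may therefore weigh more in shallower classes than this reference shows. *Aldh1a7*, a close paralogue beside it on chromosome 19, was counted separately at 16.3 and 16.2 CPM in progenitor-like cells and at 94.1 and 138 CPM in surface ectoderm-like cells, so the *Aldh1a1* level in surface ectoderm is the least certain of these.

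*Aldh1a3* had its highest level in the same retinal class but a wider spread over other epithelia. Retinal progenitor-like cells held 226 CPM in control (219 to 233) and 184 CPM in mutant (178 to 190). Surface ectoderm-like cells, a class of 66 and 69 keratin-rich cells, followed at 188 CPM (156 to 225) and 159 CPM (128 to 194). RPE-like cells held 104 CPM (90.2 to 118) and 142 CPM (123 to 162), and the few Schwann or neural crest-like cells 89.2 and 91.9 CPM. The order of these 4 classes was the same in both libraries. The intervals of retinal progenitor-like and surface ectoderm-like cells overlapped in both, those of RPE-like and Schwann or neural crest-like cells in control, and those of surface ectoderm-like and RPE-like cells in mutant. In RPE-like cells most UMIs of the gene lay in few cells: 12 of 253 control cells with at least 5 UMIs held 163 of its 215 UMIs, and 14 of 154 mutant cells held 166 of 212. The class was shallow, with medians of 3993 and 3738 UMIs, so depth as well as level can set which cells reach 5 UMIs.

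*Aldh1a2* was a gene of the mesenchyme. Periocular mesenchyme-like cells, the connective tissue around the eye, held 47.1 CPM in control (43.9 to 50.5, 786 UMIs) and 40.9 CPM in mutant (38.2 to 43.8, 832 UMIs), 90.4% and 89.9% of its UMIs. Tendon-like mesenchyme came next at 12.02 and 12.5 CPM, apart from the first class in both libraries. In the retina it was at or near the limit of detection: 8 UMIs in all control and 9 in all mutant progenitor-like cells (0.41 and 0.47 CPM), and no UMI in surface ectoderm-like cells of either library, where 3 UMIs would be 4.71 and 5.11 CPM. Of the 3 dehydrogenases, *Aldh1a2* was thus highest in mesenchyme and *Aldh1a1* in the retina. *Aldh1a3* was highest in the retina by value, with an overlapping interval in surface ectoderm-like cells in both libraries. With at most 2000 UMIs per cell its highest class in control was surface ectoderm-like.

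*Cyp1b1* was low in every class, with 430 and 487 UMIs in all kept cells. Its highest values were 26.7 CPM in control surface ectoderm-like cells (17 UMIs), 18.8 CPM in control RPE-like cells (39 UMIs) and, in mutant, 15.4 CPM in photoreceptor precursor-like cells (5 UMIs), close to the 15.1 CPM of neurogenic precursor-like cells (51 UMIs). Retinal progenitor-like cells, which held 48.4% and 47.2% of its UMIs, stood at 10.8 and 12.1 CPM. Most neighbours in its order of classes overlapped, so no single class can be named as its highest.

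*Cyp26a1*, the clearing enzyme, was high in the same retinal class as *Aldh1a1* and *Aldh1a3*. Retinal progenitor-like cells held 43.8 CPM in control (40.9 to 46.9) and 44.5 CPM in mutant (41.6 to 47.6). The gene was uneven among them: 241 of 1607 and 289 of 1669 progenitor-like cells had any UMI of it, and the 59 control cells with at least 5 UMIs, 3.67% of the class, held 63.9% of its UMIs. Tendon-like (19.1 and 21.1 CPM) and cartilage-like mesenchyme (17.9 and 25.5 CPM) followed, with overlapping intervals. In surface ectoderm-like cells it differed widely between the libraries, as given further on. *Cyp26c1*, which lies beside *Cyp26a1* on chromosome 19, had 0 UMIs in control and 1 in mutant over all kept cells, and *Cyp26b1*, the remaining enzyme of the family and no member of the 10, was highest in endothelium-like cells (55.2 and 66.1 CPM).

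*Dhrs3*, the reductase, was low in the retina and present outside it. It was highest in cartilage-like mesenchyme (77.2 CPM in control, 93.8 CPM in mutant), and macrophage-like (61.3 and 75.2 CPM), melanocyte-like (52.0 and 59.0 CPM), endothelium-like (43.3 CPM in both) and periocular mesenchyme-like cells (44.9 and 39.4 CPM) held it too. Its first classes overlapped, cartilage-like with surface ectoderm-like in control and with macrophage-like in mutant. Retinal progenitor-like cells held 1.19 CPM (23 UMIs) and 0.95 CPM (18 UMIs), below the 2.13 and 2.14 CPM of red blood cell-like cells. Surface ectoderm-like cells held 67.5 CPM (48.8 to 90.9) and 44.3 CPM (29.0 to 65.0), and RPE-like cells 19.3 and 25.4 CPM.

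*Rarb*, the receptor, was high in mesenchyme and low in the retina. Cartilage-like mesenchyme held 120 CPM in control (107 to 134) and 118 CPM in mutant (105 to 131). Periocular mesenchyme-like cells held 91.1 and 85.3 CPM and tendon-like mesenchyme 72.6 and 53.1 CPM, and these 3 classes were apart from each other in both libraries. Endothelium-like cells came after them at 33.6 and 32.2 CPM and RPE-like cells at 20.7 and 18.1 CPM. The 5 retinal classes lay between 0 and 5.94 CPM. Progenitor-like cells, at 5.08 and 4.26 CPM, were above the 0.95 and 0.88 CPM of red blood cell-like cells. Macrophage-like cells held 4.46 and 2.25 CPM, so these values do not tell whether the retinal level exceeds free RNA. *Rarb* overlaps *Top2b*, which lies on the other strand.

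*Crabp2* was the most widespread member. Retinal progenitor-like cells held 708 CPM in control (696 to 720) and 681 CPM in mutant (669 to 693), and 80.7% and 83.6% of thinned cells had a UMI of it. Tendon-like mesenchyme (493 and 373 CPM), melanocyte-like (347 and 391 CPM), Schwann or neural crest-like (377 and 277 CPM), periocular mesenchyme-like (341 and 345 CPM) and RPE-like cells (304 and 292 CPM) followed. It was low in macrophage-like (42.4 and 15.7 CPM), endothelium-like (36.5 and 10.0 CPM) and red blood cell-like cells (9.0 and 23.1 CPM). *Crabp2* was thus high in retinal progenitor-like, mesenchymal and pigment cells and low in blood and vessel classes. It was also low in surface ectoderm-like (95.7 and 80.1 CPM), photoreceptor precursor-like (71.3 and 129 CPM) and muscle-like cells (44.6 and 102 CPM).

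*Crabp1* had another order, with neurons first. Ganglion cell-like cells, the first neurons of the retina, held 1146 CPM in control (1111 to 1181) and 1270 CPM in mutant (1238 to 1304). Photoreceptor precursor-like cells held 1203 CPM in control (1089 to 1326, 405 UMIs in 28 cells) and 699 CPM in mutant (611 to 796, 227 UMIs in 30 cells), so that these classes overlapped in control and were apart in mutant. Amacrine or horizontal-like cells, neurons of the same retina, held 23.0 and 26.0 CPM, and neurogenic precursor-like cells, from which the neurons come, 118 and 155 CPM. The ganglion cell-like level rested on a minority of cells: 55 of 385 control cells with at least 10 UMIs held 93.1% of its UMIs, and 62 of 541 mutant cells held 91.8%. The class joined the shallow cluster 9 (202 and 301 cells, medians of 1543 and 1804 UMIs) with the deep cluster 13 (medians of 16655 and 15533 UMIs). Which cells reached 10 UMIs therefore follows depth as well as level. Outside the retina *Crabp1* was at 242 and 218 CPM in periocular mesenchyme-like cells and at 22.6 and 12.03 CPM in RPE-like cells.

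**Figure D2:**
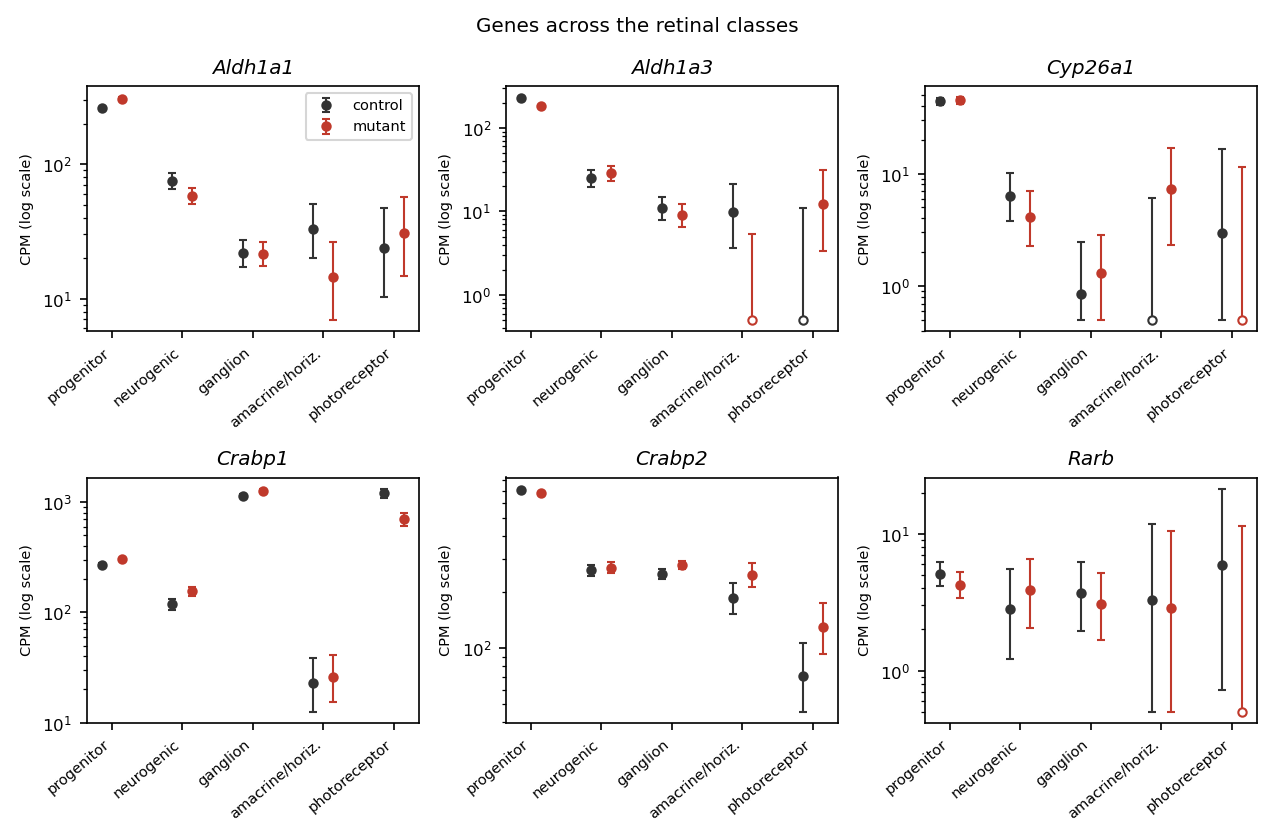
CPM (log scale) of 6 genes in the 5 retinal classes, control in dark grey and mutant in red; bars are 95% counting intervals and open circles mark classes without a UMI, drawn at 0.5 CPM, where lower bars are also cut. *Aldh1a1*, *Aldh1a3*, *Cyp26a1* and *Crabp2* are highest in progenitor-like cells, whereas *Crabp1* is highest in ganglion cell-like and photoreceptor precursor-like cells, at 699 CPM or more in each.

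Across the retinal classes, then, *Aldh1a1*, *Aldh1a3* and *Cyp26a1* were lower in neurogenic precursor-like than in progenitor-like cells and lower again in ganglion cell-like cells. *Aldh1a1* went from 261 CPM through 75.4 CPM in neurogenic precursor-like to 21.7 CPM in ganglion cell-like cells in control, and from 307 through 58.1 to 21.5 CPM in mutant. *Aldh1a3* went from 226 through 25.01 to 10.996 CPM in control and from 184 through 28.8 to 8.98 CPM in mutant. *Cyp26a1* went from 43.8 through 6.34 to 0.85 CPM in control and from 44.5 through 4.15 to 1.31 CPM in mutant. These are descriptions of classes made by clustering, with the same order in both libraries.

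Within the retinal progenitor-like class the members were split further by *Tbx5*, a transcription factor of the dorsal retina, and *Vax2*, one of the ventral retina; neither is a member. Cells with a *Tbx5* UMI and none of *Vax2* numbered 42 in control and 54 in mutant and are called dorsal here, cells with the reverse numbered 797 and 746 and are called ventral, and 7 and 2 cells had both. The remaining 761 and 867 cells had neither and were shallower, with medians of 5756 and 6535 UMIs against 17685 and 14123 in the dorsal and 14985 and 13879 in the ventral cells. Cells are not replicates, and the same cells were sequenced together in 1 library, so the values describe these 2 pools.

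*Aldh1a1* and *Aldh1a3* divided the dorsal and the ventral cells between them. *Aldh1a1* stood at 1467 CPM in dorsal and 58.7 CPM in ventral control cells, a log2 ratio of 4.64 (4.51 to 4.78), and at 1885 and 76.1 CPM in mutant cells, 4.63 (4.51 to 4.75). *Aldh1a3* stood at 17.97 CPM in dorsal (14 UMIs) and 340 CPM in ventral control cells, a log2 ratio of -4.23 (-5.11 to -3.49), and at 31.3 CPM (26 UMIs) and 301 CPM in mutant cells, -3.26 (-3.88 to -2.71). Cells with neither marker lay between, at 453 and 461 CPM for *Aldh1a1* and 52.0 and 34.3 CPM for *Aldh1a3*. Counted per cell at 3000 UMIs, 79.5% of control and 76.9% of mutant dorsal cells held *Aldh1a1* alone, and 2.56% and 3.85% held both enzymes. Of ventral cells 37.5% and 29.8% held *Aldh1a3* alone, 5.07% and 7.97% *Aldh1a1* alone, and 7.80% and 10.9% both.

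**Figure D3:**
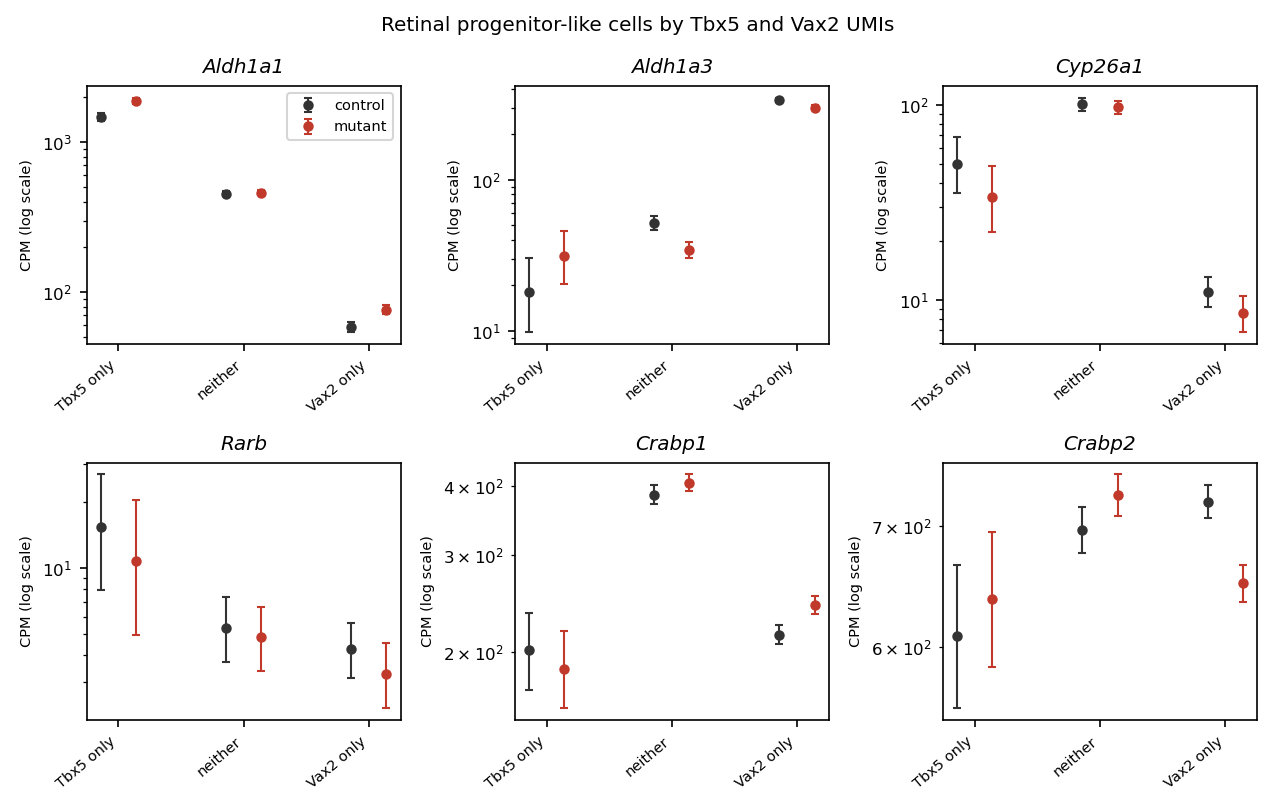
CPM (log scale) of 6 genes in retinal progenitor-like cells with a *Tbx5* UMI only, with neither marker and with a *Vax2* UMI only; control in dark grey, mutant in red, bars 95% counting intervals. *Aldh1a1* falls from 1467 to 58.7 CPM from left to right in control and *Aldh1a3* rises from 17.97 to 340 CPM, while *Cyp26a1* and *Crabp1* are highest in the cells with neither marker.

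The remaining members differed among themselves. *Cyp26a1* was highest in the cells with neither marker, at 101 CPM in control and 97.4 CPM in mutant. It was at 50.1 CPM in dorsal and 11.05 CPM in ventral control cells, a log2 ratio of 2.16 (1.62 to 2.71), and at 33.7 and 8.52 CPM in mutant cells, 1.96 (1.32 to 2.61). *Crabp1* was also highest in cells with neither marker (385 and 405 CPM) and differed little between dorsal and ventral cells, with log2 ratios of -0.09 (-0.34 to 0.14) and -0.38 (-0.63 to -0.15). *Rarb* was low throughout, at 15.4 CPM in dorsal (12 UMIs) and 4.25 CPM in ventral control cells, 1.82 (0.81 to 2.79), and at 10.8 CPM (9 UMIs) and 3.28 CPM in mutant cells, 1.67 (0.48 to 2.81). *Crabp2*, at log2 ratios of -0.25 and -0.03, and *Cyp1b1*, at 0.38 and 0.68, were within 2-fold. With cells thinned to 3000 UMIs the control *Cyp1b1* ratio was -2.84. *Dhrs3* was scarce, at 0.10 (-5.29 to 2.83) in control on 1 dorsal and 14 ventral UMIs. In mutant it was at 1.77 (-0.55 to 3.90) on 3 and 10 UMIs.

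In all, 4 members were past 2-fold in the same direction in both libraries: *Aldh1a1*, *Cyp26a1* and *Rarb* higher in dorsal cells and *Aldh1a3* higher in ventral cells. Over all 11902 genes with at least 10 UMIs in each library's comparison, 1.4% were past 2-fold higher in dorsal cells in both libraries and 2.29% higher in ventral cells. When dorsal and ventral cells were instead taken from several marker genes, *Rarb* in control fell to a log2 ratio of 0.93 and 3 members remained past the fold. With cells thinned to 3000 UMIs before the rule, which left 10 dorsal cells in control and 21 in mutant, 2 members were past it, *Aldh1a1* and *Aldh1a3*, since *Rarb* and, in mutant, *Cyp26a1* were left with too few UMIs to compare.

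Of the other genes of the pathway, *Stra6* and *Rdh10* showed no such division in control cells. *Stra6*, the retinol uptake receptor, stood at 33.4 CPM in dorsal and 31.2 CPM in ventral control cells, a log2 ratio of 0.10 (-0.54 to 0.67). *Rdh10*, which oxidises retinol, was level in control (25.7 CPM in both, log2 ratio 0.00) and higher in dorsal cells in mutant (62.6 against 25.8 CPM, 1.28, interval 0.82 to 1.71).

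The mesenchyme was divided as well, between clusters that the class name covers. Periocular mesenchyme-like cells formed 5 clusters, and cluster 8, whose leading genes included *Six2* and *Nrp2*, held *Aldh1a2* at 124 CPM in both libraries. Cluster 16 (leading genes *Fmo1*, *Cxcl12*, *Mgp*) followed at 68.0 and 52.3 CPM, and cluster 6, which was led by cell division genes such as *Top2a*, at 45.1 and 30.9 CPM. Cluster 18 (*Foxl2*, *Osr2*, *Alx1*) held 20.1 and 35.3 CPM and cluster 2 (*Tfap2b*, *Twist1*) 3.84 and 5.55 CPM. In both libraries the intervals of clusters 8, 16 and 6 were apart from that of cluster 2.

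**Figure D4:**
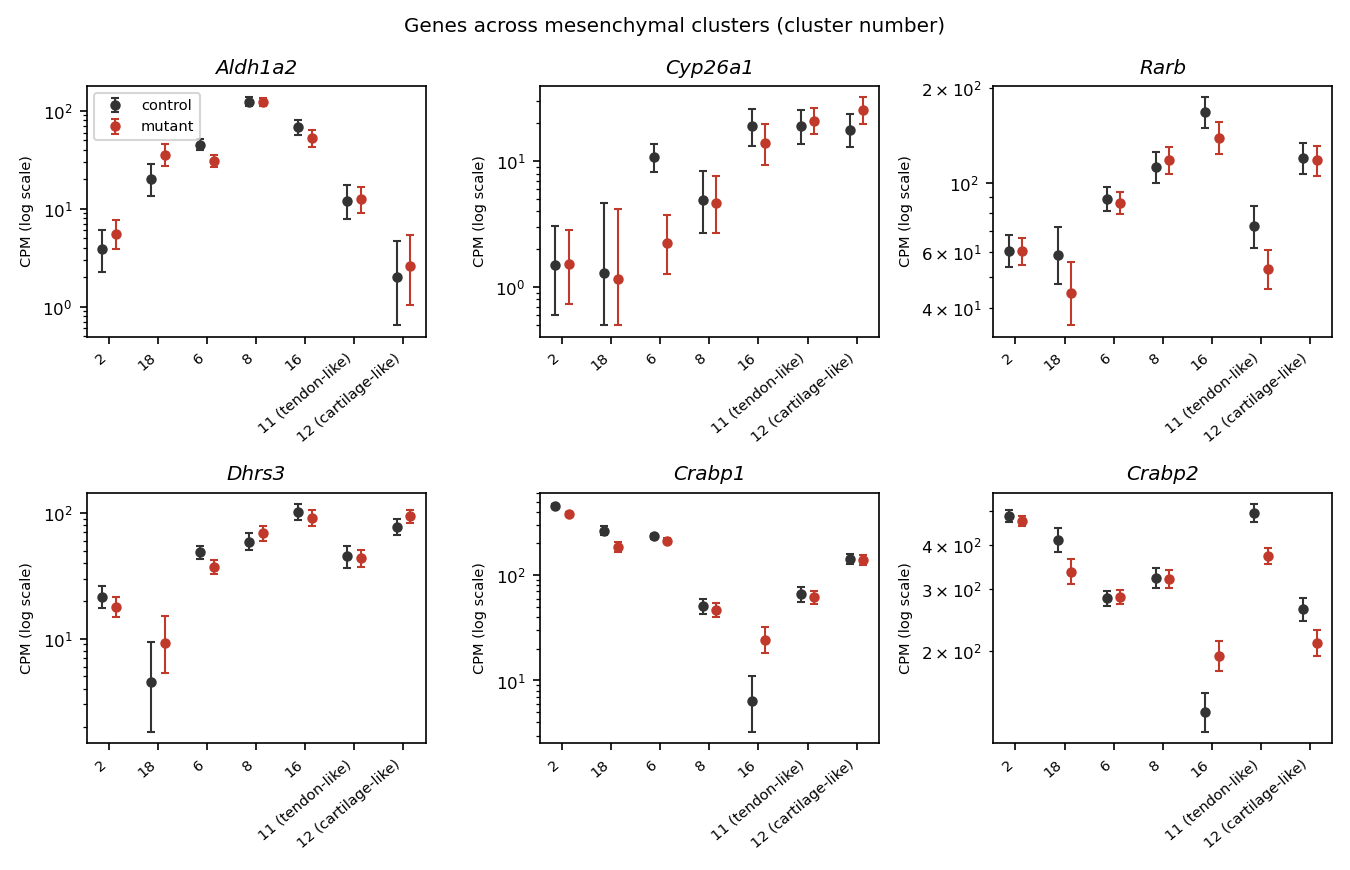
CPM (log scale) of 6 genes in the 5 periocular mesenchyme-like clusters (2, 18, 6, 8 and 16) and in tendon-like (11) and cartilage-like (12) mesenchyme, control in dark grey and mutant in red, bars 95% counting intervals, lower bars cut at 0.5 CPM. *Aldh1a2* peaks in cluster 8 at 124 CPM in both libraries, and *Rarb* is highest in cluster 16. *Dhrs3* is highest in cluster 16 in control and in cluster 12 in mutant (93.8 CPM). *Crabp1* falls from 456 CPM in cluster 2 to 6.33 CPM in cluster 16 in control.

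Among the 5 periocular mesenchyme-like clusters *Rarb* and *Dhrs3*, both known targets of the acid, were highest in cluster 16. Its *Rarb* interval overlapped that of cluster 8 in mutant. *Rarb* stood there at 168 CPM in control and 139 CPM in mutant, against 60.8 and 60.5 CPM in cluster 2 and 58.9 and 44.6 CPM in cluster 18. *Dhrs3* stood there at 102 and 91.7 CPM, against 21.5 and 17.9 CPM in cluster 2 and 4.53 and 9.26 CPM in cluster 18. *Crabp1* ran the opposite way, at 456 and 383 CPM in cluster 2, 50.6 and 47.1 CPM in cluster 8 and 6.33 and 24.5 CPM in cluster 16. *Cyp26a1* was at 19.0 and 13.9 CPM in cluster 16 and below 2 CPM in clusters 2 and 18 of both libraries.

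The comparison of mutant with control asks how the members stood once *Myrf* had been targeted in the eye field. A gene was compared in a class when its UMIs in the 2 libraries summed to 10 or more, and is called past the fold at a log2 ratio of 1 or more or of -1 or less. In RPE-like cells 7 members could be compared and 1 was past the fold, *Cyp1b1*, which was lower; over all 11196 genes compared in this class 4.28% were past 2-fold lower and 2.87% higher. *Cyp1b1* had 39 UMIs in 27 of 253 control cells (18.8 CPM, 13.4 to 25.7) and 9 UMIs in 9 of 154 mutant cells (6.02 CPM, 2.75 to 11.4), a log2 ratio of -1.53 (-2.87 to -0.57). *Aldh1a3* differed the other way, 104 against 142 CPM, 0.45 (0.17 to 0.73), and *Crabp1* was at 22.6 and 12.03 CPM, -0.86 (-1.78 to -0.10). Without the highest cell of each library the *Crabp1* ratio was -0.30, and with at most 20000 UMIs per cell it was 0.14. With cells of at most 5% mitochondrial UMIs the *Cyp1b1* ratio was -0.91 and no longer past the fold, the *Aldh1a3* ratio was -0.06, and the members past the fold were instead *Aldh1a1* at -1.51 and *Crabp1* at -1.09. In the reported setting *Aldh1a1*, *Rarb*, *Crabp2* and *Dhrs3* had intervals that held 0, from -0.18 for *Rarb* to 0.40 for *Dhrs3*.

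The pathway list of 44 genes includes the members. Of the list, 30 genes could be compared and 3 were past the fold, all lower: *Cyp1b1*, given above, *Rdh10* and *Ttr*. The median log2 ratio was -0.26 against -0.03 over all genes of the class. *Rdh10* went from 174 to 51.5 CPM, -1.74 (-2.13 to -1.40), and *Ttr*, the carrier protein for retinol in blood, from 2450 to 768 CPM, -1.67 (-1.77 to -1.58). All 6 compared genes of the transport and storage list had ratios below 0 beyond counting error, 1 of them past the fold, among them *Ttr* at -1.67, *Rdh5* at -0.86 and *Stra6* at -0.60 (8.20% of all genes of the class lay below 0 in this way). The summed RPE markers, which include *Ttr* and *Rlbp1*, were at 15060 CPM in control and 10745 CPM in mutant; the part of this shift in the values above was not tested.

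In retinal progenitor-like cells 9 members could be compared and none was past the fold, where 1.56% of 13857 genes were past it lower and 1.26% higher. *Aldh1a1* was at 261 against 307 CPM, a log2 ratio of 0.23 (0.18 to 0.29), and *Crabp1* at 272 against 304 CPM, 0.16 (0.11 to 0.22). *Aldh1a3* was at 226 against 184 CPM, -0.30 (-0.36 to -0.23), and *Crabp2* at 708 against 681 CPM, -0.06 (-0.09 to -0.02). *Cyp26a1* was at 0.02 (-0.12 to 0.16). Within the ventral cells alone *Aldh1a3* differed by -0.18 (-0.24 to -0.11) and within the cells with neither marker by -0.60 (-0.84 to -0.36). Within dorsal cells it was at 0.76 (-0.19 to 1.85), on 14 and 26 UMIs. *Aldh1a1* differed by 0.36 (0.25 to 0.47) within dorsal and 0.37 (0.23 to 0.52) within ventral cells. Within the cells with neither marker *Aldh1a1* was at 0.03 (-0.05 to 0.10), on 2983 and 3447 UMIs. Cells called dorsal by a *Tbx5* UMI made up 2.61% of the control and 3.24% of the mutant class. Cells with neither marker made up 47.4% and 51.9%, so these are shares with *Tbx5* detected and not shares of dorsal tissue.

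Of the pathway list, 35 genes could be compared in this class and 3 were past the fold, all lower and all scarce. *Ttr* went from 29 to 10 UMIs, -1.43 (-2.72 to -0.44), and *Rlbp1*, a retinoid carrier of the RPE, from 27 to 10 UMIs, -1.33 (-2.62 to -0.32). *Rarg*, a receptor, went from 16 to 7 UMIs, -1.07 (-2.70 to 0.19), an interval that holds 0. *Ttr* and *Rlbp1* are RPE markers, and the summed RPE markers in this class were at 70.1 CPM in control and 42.4 CPM in mutant.

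In periocular mesenchyme-like cells 9 members could be compared and 1 was past the fold, *Cyp26a1*, against 1.86% of 14331 genes lower and 0.984% higher. It had 121 UMIs in 44 of 1129 control cells (7.25 CPM) and 72 UMIs in 42 of 1425 mutant cells (3.54 CPM), a log2 ratio of -1.03 (-1.48 to -0.60). Most of this lay in cluster 6, with 62 and 15 UMIs (10.8 and 2.26 CPM), while cluster 8 (4.96 and 4.71 CPM) and cluster 16 (19.0 and 13.9 CPM) had overlapping intervals. The call is at the edge of the fold: it was lost under 7 alternative settings, with ratios from -0.99 at a clustering resolution of 1.6 to -0.12 with at most 20000 UMIs per cell. *Aldh1a2* differed by -0.20 (-0.35 to -0.06), *Dhrs3* by -0.19 (-0.33 to -0.04), *Crabp1* by -0.15 (-0.22 to -0.09) and *Crabp2* by 0.01 (-0.04 to 0.06). Of the pathway list, *Ttr* was also past the fold, from 37 to 12 UMIs, -1.83 (-2.98 to -0.94).

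**Figure D5:**
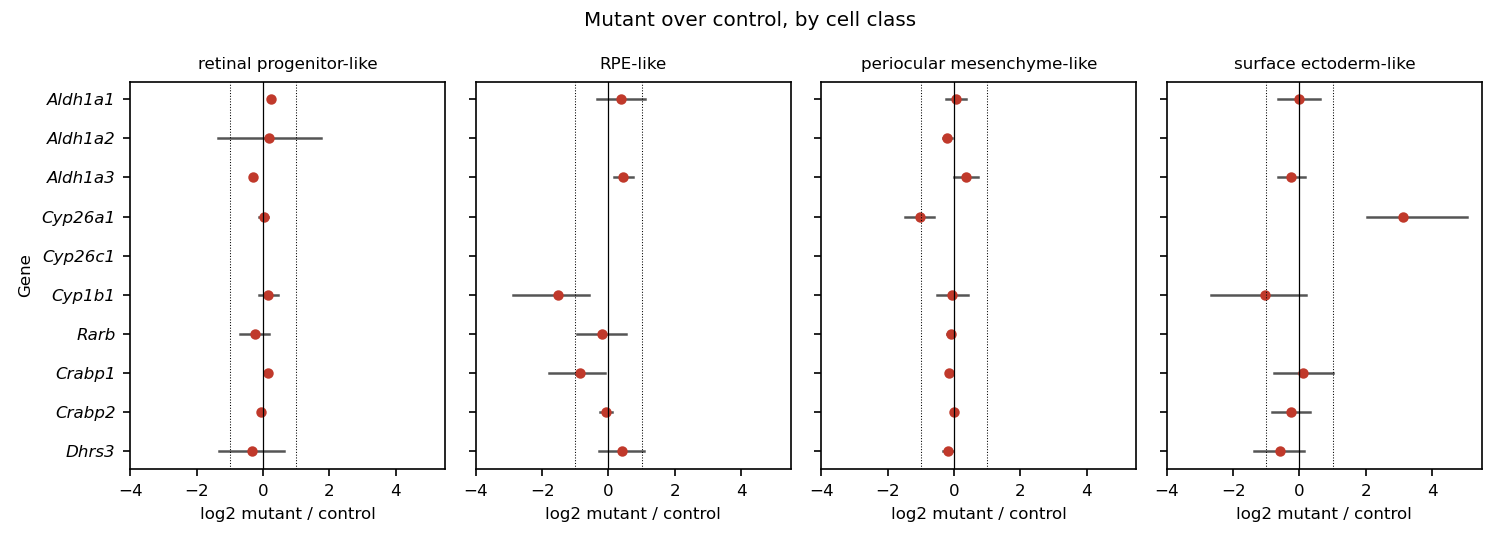
Log2 ratio of mutant over control for each gene whose UMIs summed to 10 or more over the libraries, in 4 cell classes; bars are 95% counting intervals (drawn within the axis limits) and dotted lines mark 2-fold. Most points lie between the dotted lines; *Cyp1b1* in RPE-like cells (-1.53), *Cyp26a1* in periocular mesenchyme-like cells (-1.03) and *Cyp26a1* in surface ectoderm-like cells (3.12) lie outside with intervals that exclude 0.

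The widest called difference of a member between the libraries was that of *Cyp26a1* in surface ectoderm-like cells. It had 5 UMIs in 2 of 66 control cells (7.85 CPM, 2.55 to 18.3) and 47 UMIs in 12 of 69 mutant cells (80.1 CPM, 58.9 to 107), a log2 ratio of 3.12 (2.03 to 5.04). In this class 3.89% of 8308 genes were past 2-fold higher and 5.26% lower. One mutant cell held 18 of the 47 UMIs, and the ratio was 3.44 without the highest cell of each library; under a limit of 20000 UMIs per cell it was 1.03. The summed retinal progenitor markers in this class were at 808 CPM in control and 1219 CPM in mutant, and their part in the difference was not tested. *Aldh1a3* (188 and 159 CPM) and *Aldh1a1* (70.6 and 69.9 CPM) had overlapping intervals. Of 7 members compared here 2 were past the fold. The other was *Cyp1b1*, lower on 17 and 7 UMIs, -1.05 (-2.67 to 0.18), and at 0.44 with at most 20000 UMIs per cell.

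*Crabp1* in photoreceptor precursor-like cells was at 1203 against 699 CPM, a log2 ratio of -0.78 (-1.02 to -0.55) that stayed within 2-fold, as did all 4 members compared (4.45% of 6498 genes were past it lower and 4.19% higher). It rested on 28 and 30 cells, of which 10 control and 6 mutant cells with at least 10 UMIs held 90.6% and 77.1% of the UMIs. *Crabp2* in the same cells was at 71.3 and 129 CPM, 0.83 (0.10 to 1.65). In amacrine or horizontal-like cells 4 members were compared, 1 with an interval below 0 and 1 with an interval above 0. *Aldh1a1* was lower on 20 and 10 UMIs, -1.12 (-2.45 to -0.02), and at -0.51 without the top cell. *Crabp2* was higher on 113 and 172 UMIs, 0.41 (0.07 to 0.77). Among all 8476 genes of that class 3.69% had intervals below 0 and 3.09% above. *Cyp1b1* was at 1.40 (-0.51 to 5.09) on 2 and 8 UMIs, an interval that holds 0. The share of all genes past 2-fold is not given here for this class.

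Classes outside the eye field also held members past the fold, at low levels. In endothelium-like cells 4 of 6 compared members were past the fold lower (4.32% of 10155 genes were past the fold lower and 1.46% higher): *Aldh1a1* at 27.3 and 8.33 CPM, *Aldh1a3* at 7.97 and 3.33 CPM, *Crabp1* at 24.5 and 8.89 CPM and *Crabp2* at 36.5 and 10.0 CPM. The *Aldh1a3* interval held 0 (-2.93 to 0.21), and its ratio was -0.62 without the top cell and -0.85 with at most 20000 UMIs per cell. The *Aldh1a1* ratio was -0.40 without the top cell and -0.16 with at most 5% mitochondrial UMIs, and the *Crabp1* ratio -0.21 with at most 20000 UMIs, while *Crabp2* stayed past the fold in each setting that gave a value. In macrophage-like cells 2 of 6 were lower (3.66% lower and 3.55% higher over all genes), *Crabp1* at 29.0 and 5.62 CPM and *Crabp2* at 42.4 and 15.7 CPM. The *Crabp2* call there was lost with at most 2000 UMIs (-0.75), with at most 5% mitochondrial UMIs (-0.69) and without doublet removal (-0.84). The summed retinal progenitor markers were lower in the same classes, at 776 and 530 CPM in endothelium-like and 397 and 235 CPM in macrophage-like cells, and their part in these values was not tested. In Schwann or neural crest-like cells *Crabp1* was higher at 43.0 and 93.6 CPM and *Dhrs3* lower on 7 and 4 UMIs, 2 of 5 members compared (5.55% lower and 3.98% higher over all genes); the *Crabp1* ratio there was 0.41 with at most 20000 UMIs and 0.89 without the top cell. In red blood cell-like cells *Crabp2* was higher, 1 of 6, in a class where 14.4% of all genes were past the fold higher and 2.43% lower. That call was lost with at most 20000 UMIs (0.91) and without doublet removal (0.50), and the ratio was -0.52 with at most 2000 UMIs. In muscle-like cells *Crabp2* was higher at 44.6 and 102 CPM, 1.16 (0.53 to 1.89). It was the 1 of 2 compared members with an interval above 0, and the share of all genes past 2-fold is not given here for this class. Among all 7514 genes of that class 3.77% had intervals above 0 and 5.20% below. With at most 20000 UMIs the ratio there was 0.17.

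Genes with the most similar pattern over the 32 points of class and library (Pearson correlation of log2(CPM + 1)) differed from member to member. They were *Wfdc1*, *Dapl1* and *Map7* for *Aldh1a1* (r = 0.84 to 0.83), *Osr1*, *Mgat4c* and *Tbx18* for *Aldh1a2* (0.90 to 0.89), and *Gm3716*, *Dab1* and *Plekha7* for *Aldh1a3* (0.84 to 0.79). For *Rarb* they were *Serpinf1*, *Igsf10* and *Il11ra1* (0.92 to 0.89), for *Dhrs3* *Selenbp1*, *Anxa7* and *Vamp8* (0.89 to 0.88), and for *Cyp26a1* *Cth*, *Galnt16* and *Mapk13* (0.75 to 0.72). For *Crabp1* they were *Khdrbs2*, *Map2* and *Cnih2* (0.79 to 0.78), for *Crabp2* *Fez1* and *Cntfr* (0.92 and 0.86), and for *Cyp1b1* *Mtmr7*, *Fbxo27* and *Ank3* (0.88 to 0.83). Among the members themselves the closest pairs were *Aldh1a2* with *Rarb* (0.69) and *Aldh1a1* with *Aldh1a3* (0.67). The points share libraries and depth, and the values are descriptions.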

How the data were processed

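Single-cell 3′ libraries (10x Genomics) of 2 samples were processed by the authors with Cell Ranger 7.1.0 on mm10, per the labels, and the deposited matrices hold raw UMI counts per gene and cell; whether intronic reads were counted is not given in the sources used here. Cells with under 200 genes, over 15% mitochondrial UMIs, or called doublets by Scrublet (68 control, 65 mutant) were left out. Clusters were made in Seurat 5.3.0 (2000 variable features less members and pathway genes, integration, 30 dimensions, resolution 0.8) and named from marker lists when at least 3 markers and 25% of a list were over 2-fold above the other cells; these thresholds were chosen with the clusters in view.

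UMIs were summed per class and library, as CPM with exact Poisson intervals. Ratios have 1 UMI added to each sum and exact conditional binomial intervals; for dorsal over ventral cells, whose totals differ widely, that UMI was shared in proportion to the totals. Shares of cells have exact (Clopper-Pearson) intervals. With 1 pooled library per genotype no test was run. UMI depth per library was 63483835 and 75228861, and UMIs from 1 cell are not independent, so intervals cover counting error only.

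The genes, lists and marker rules were chosen with earlier results of these data known. Named beside the 10 members are *Myrf*, class and dorsal or ventral markers, pathway genes past 2-fold in 3 classes, and the 3 genes most like each member (some results are not reported here); *Stra6*, *Rdh5*, *Cyp26b1*, *Aldh1a7*, *Top2b* and the leading genes of clusters were named after their values were seen. The ratio calculation was tested on simulated data. Positions are from GENCODE vM21 (GRCm38), promoter sequences from RefSeq.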

Additional observations from a re-analysis of the deposited data

Results flagged for a closer look

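The mutant over control ratios of *Cyp26a1*, *Aldh1a1*, *Crabp1* and *Crabp2* lay on opposite sides of 0, beyond counting error, in 2 cell classes. Each was past 2-fold in at least 1 of them. The pair of classes was not fixed beforehand, and the share of all genes that meet this rule was not counted. These values are therefore not a trait shown to set the members apart. The difference between the classes was not tested. *Cyp26a1* had a log2 ratio of 3.12 in surface ectoderm-like cells and -1.03 in periocular mesenchyme-like cells. *Aldh1a1* had 0.97 in tendon-like mesenchyme (13 against 43 UMIs) and -1.65 in endothelium-like cells (48 against 15 UMIs). *Crabp1* had 1.04 in Schwann or neural crest-like cells (13 against 53 UMIs) and -2.26 in macrophage-like cells (52 against 10 UMIs). *Crabp2* had 1.33 in red blood cell-like cells (38 against 237 UMIs) and -1.81 in endothelium-like cells (64 against 18 UMIs). Within 2-fold, *Aldh1a3* had 0.45 in RPE-like and -0.30 in retinal progenitor-like cells, and *Dhrs3* had 0.28 in cartilage-like and -0.19 in periocular mesenchyme-like cells.

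The share of all compared genes past 2-fold lower was 4.32% in endothelium-like, 3.66% in macrophage-like and 1.86% in periocular mesenchyme-like cells. The share past 2-fold higher was 3.98% in Schwann or neural crest-like, 14.4% in red blood cell-like and 3.89% in surface ectoderm-like cells. The summed retinal progenitor markers were at 776 CPM in control and 530 CPM in mutant endothelium-like cells, at 397 and 235 CPM in macrophage-like cells, at 492 and 686 CPM in Schwann or neural crest-like cells, and at 79.5 and 121 CPM in red blood cell-like cells; their part in the ratios was not tested. Without the highest cell of each library the *Aldh1a1* ratio in endothelium-like cells was -0.40 and the *Crabp1* ratio in Schwann or neural crest-like cells 0.89. The *Crabp2* ratio in red blood cell-like cells was 0.50 without doublet removal and 0.91 with at most 20000 UMIs per cell.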

How the results depend on the processing

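No paired analysis was possible because each genotype had 1 library. Of 98 mutant over control ratios, 1031 values under other settings gave 960 within the counting interval of the reported value. The sign changed in 68 values, among them 2 of ratios reported past 2-fold: *Crabp2* in red blood cell-like cells (-0.52 with at most 2000 UMIs per cell) and *Cyp1b1* in surface ectoderm-like cells (0.44 with at most 20000 UMIs per cell). The count of members past 2-fold in RPE-like cells, 1 as reported, was 0 with at most 2000 UMIs per cell, 2 with at most 5% mitochondrial UMIs (*Aldh1a1* and *Crabp1*, not *Cyp1b1*) and 2 without integration. In retinal progenitor-like cells it was 1 instead of 0 with at most 5% mitochondrial UMIs (*Aldh1a2*, 1.06). In periocular mesenchyme-like cells it was 0 instead of 1 with at most 20000 UMIs, with at most 5% mitochondrial UMIs, without doublet removal, without integration, at resolution 0.4 or 1.6, and without the top cell of each gene. Between dorsal and ventral cells it was 2 instead of 4 after thinning to 3000 UMIs; with at most 2000 UMIs per cell no value could be had. Leaving out barcodes found in both libraries, a setting chosen after seeing the data, kept all 5 counts. The highest class of *Rarb* and of *Dhrs3* was as reported in 7 of 12 settings in each library, and that of *Crabp1* in 7 in control. The causes were not tested. Depth limits *Cyp26c1*, *Cyp1b1* and the small classes.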
